A study of Mus musculus with 6 samples.

Results

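The MHC class II genes and their activator Ciita were followed in mouse hippocampus. The members were chosen by gene symbol: Ciita, Cd74 and H2-Ab1, with those of H2-Aa, H2-Eb1, H2-DMa and H2-DMb1 that the deposited table lists. Of these 7 genes, 6 are among the 3733 genes of the table, and H2-DMa is not analysed here. Total RNA of hippocampus gave 6 libraries in 3 groups of 2: Control, PIA (postnatal immune activation, which the study's design calls LPS) and PIA+IL-27 (LPS with recombinant IL-27). LPS, a component of the wall of Gram-negative bacteria, sets off innate immunity, and IL-27 belongs to the IL-12 family of cytokines. The labels give no strain, age, sex, dose, time or animal, and do not say whether animals were pooled, so p-values measure only the spread between these samples. The table is itself a selection: all 3733 genes meet the authors' call (log2 change of 1 or more in size, Q at most 0.05) in some comparison. A gene therefore had to differ in these same libraries to be listed at all.

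MHC class II molecules are pairs of an alpha and a beta chain that carry peptides from the lysosomal pathway to the cell surface, where CD4 T cells read them. The invariant chain, encoded by Cd74, holds the new pair and blocks its groove, and the H2-M complex later exchanges the last fragment of the invariant chain for peptide. Ciita is a coactivator that binds no DNA itself. It is recruited by factors sitting on the X and Y boxes shared by the promoters of these genes, and its own transcription is switched on by interferon gamma in many cell types. In brain tissue class II is known for very low levels at rest and for induction in microglia and in macrophages of the borders.

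Promoter sequences from RefSeq (build GRCm38.p6) were found for 3 of the 6 genes, and they are shown because the X and Y boxes on which Ciita acts lie in them. H2-DMb2, the neighbouring copy of H2-DMb1, is added. Each line runs 5′ to 3′ on the strand of the gene. The capitals mark a core of the X box (GATGATG, or the palindrome TGACGTCA of its X2 part in H2-Aa) and then the Y box core (GATTGG).
H2-Aa: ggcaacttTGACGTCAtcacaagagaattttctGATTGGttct
H2-Eb1: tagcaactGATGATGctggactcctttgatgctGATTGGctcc
H2-DMb1: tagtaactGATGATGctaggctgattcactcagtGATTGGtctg
H2-DMb2: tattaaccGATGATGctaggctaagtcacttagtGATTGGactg
The H2-Aa stretch is chr17:34287863-34287905 on the minus strand. On the plus strand, H2-Eb1 is chr17:34305774-34305816, H2-DMb1 is chr17:34153095-34153138 and H2-DMb2 is chr17:34145124-34145167. Between both cores lie 17 bases in H2-Aa, 18 in H2-Eb1 and 19 in both H2-DMb copies. The Y box core starts at position -49 from the transcription start in H2-Aa, -60 in H2-Eb1, -62 in H2-DMb1 and -91 in H2-DMb2. The letters were chosen after reading these promoters. Searched on both strands of 32851 promoters of 300 bases, GATTGG was found in 16.1%, GATGATG in 3.48% and TGACGTCA in 1.79%. The motifs do not overlap each other in these 4 promoters, and H2-Eb1 holds a further GATTGG on the opposite strand at -35. GATGATG followed by GATTGG on the same strand, with 10 to 30 bases between, occurred in 6 promoters (0.0183%). They include those of H2-Eb1, H2-DMb1 and H2-DMb2. TGACGTCA followed by GATTGG in the same way occurred in 16 (0.0487%), among them H2-Aa. These matches describe letters, and binding was not measured.

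The libraries were not alike outside the class II genes. Reads in the listed genes ran from 641672 to 1593441 per library and made up 2.14 to 5.61% of the TPM total (TPM is a read share per transcript length, scaled to a common sum), so the table holds a small part of each library. Markers of neocortex, 3 of 8 in the table, summed to 5378 normalized read counts for PIA 2, and for PIA+IL-27 1 to 8107, against 1087 to 2559 in the other 4 libraries. Markers of dentate granule cells, 3 of 7 in the table, summed to 141 and 210 in these libraries, against 705 to 1519 in the others. The 4 listed Y-linked genes summed to 2.94 and 9.52 in the Control libraries, 541 and 594 in those of PIA, and 1476 and 6.80 in those of PIA+IL-27. The comparison of PIA with Control therefore cannot be told apart from this difference. Normalized read counts are the authors' read counts divided by 1 factor per library.

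Ciita, the activator, had the lowest TPM of the 6 transcripts in every library. It had 23.5 and 6.67 normalized read counts in the Control libraries, 40.4 and 163 in those of PIA, and 12.5 and 12.6 in those of PIA+IL-27. Both PIA libraries lay above all 4 others, with PIA 2 at 4.03 times PIA 1, and the Control and PIA+IL-27 values overlapped. In TPM, which allows for transcript length, the level of Ciita was 0.38 and 0.08 in the Control libraries, 0.63 and 2.27 in those of PIA, and 0.15 and 0.16 in those of PIA+IL-27. These levels rest on few reads: the 6 reads of Control 2 have an exact Poisson 95% interval of 2.20 to 13.1 reads, which covers counting error only. The read counts of Ciita were estimates that are not whole numbers in all 6 libraries.

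Cd74, the invariant chain, had the highest TPM of the members in 5 of 6 libraries. It had 97.9 and 35.2 normalized read counts in the Control libraries, 211 and 473 in those of PIA, and 79.2 and 10.7 in those of PIA+IL-27. Both PIA values lay above all 4 others, and the PIA+IL-27 libraries differed from each other by 7.42 times, the widest gap between replicates of any member. In PIA+IL-27 2 it was counted 11 times (exact Poisson 95% interval 5.49 to 19.7 reads), against 76 times in PIA+IL-27 1 (59.9 to 95.1). The level of Cd74 was 10.6 and 4.36 TPM in the Control libraries, 23.0 and 48.8 in those of PIA, and 9.11 and 1.24 in those of PIA+IL-27.

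The genes of the surface chains were next. H2-Aa, the alpha chain of the I-A molecule, had 80.3 and 29.5 normalized read counts in the Control libraries, 131 and 267 in those of PIA, and 50.1 and 34.0 in those of PIA+IL-27. H2-Ab1, its beta chain partner, had 88.2 and 22.9 in the Control libraries, 126 and 211 in those of PIA, and 26.1 and 9.71 in those of PIA+IL-27. For both genes the lower PIA library lay above the higher Control library. H2-Eb1, the beta chain of the I-E molecule, had 29.4 and 11.4 in the Control libraries, 56.7 and 180 in those of PIA, and 45.9 and 12.6 in those of PIA+IL-27. It was the only member whose mean in PIA+IL-27 (29.3 ± 23.5, SD, n = 2) was above that in Control (20.4 ± 12.7), with overlapping values. Its partner gene H2-Ea is annotated as a transcribed pseudogene in RefSeq and was not analysed here.

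H2-DMb1, the beta chain of the peptide exchanger H2-M, had 34.3 and 14.3 normalized read counts in the Control libraries, 29.8 and 106 in those of PIA, and 16.7 and 4.85 in those of PIA+IL-27. It was the only member whose Control and PIA groups overlapped, since PIA 1 lay below Control 1. H2-DMb1 has a similar copy next to it, H2-DMb2, and its read counts were not whole in 5 libraries, so the division of reads between the copies is uncertain. The copies summed to 44.1 and 25.7 normalized read counts in the Control libraries, 47.1 and 151 in those of PIA, and 28.2 and 16.5 in those of PIA+IL-27. In the sum PIA 1 lay above both Control libraries.

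**Figure D1:**
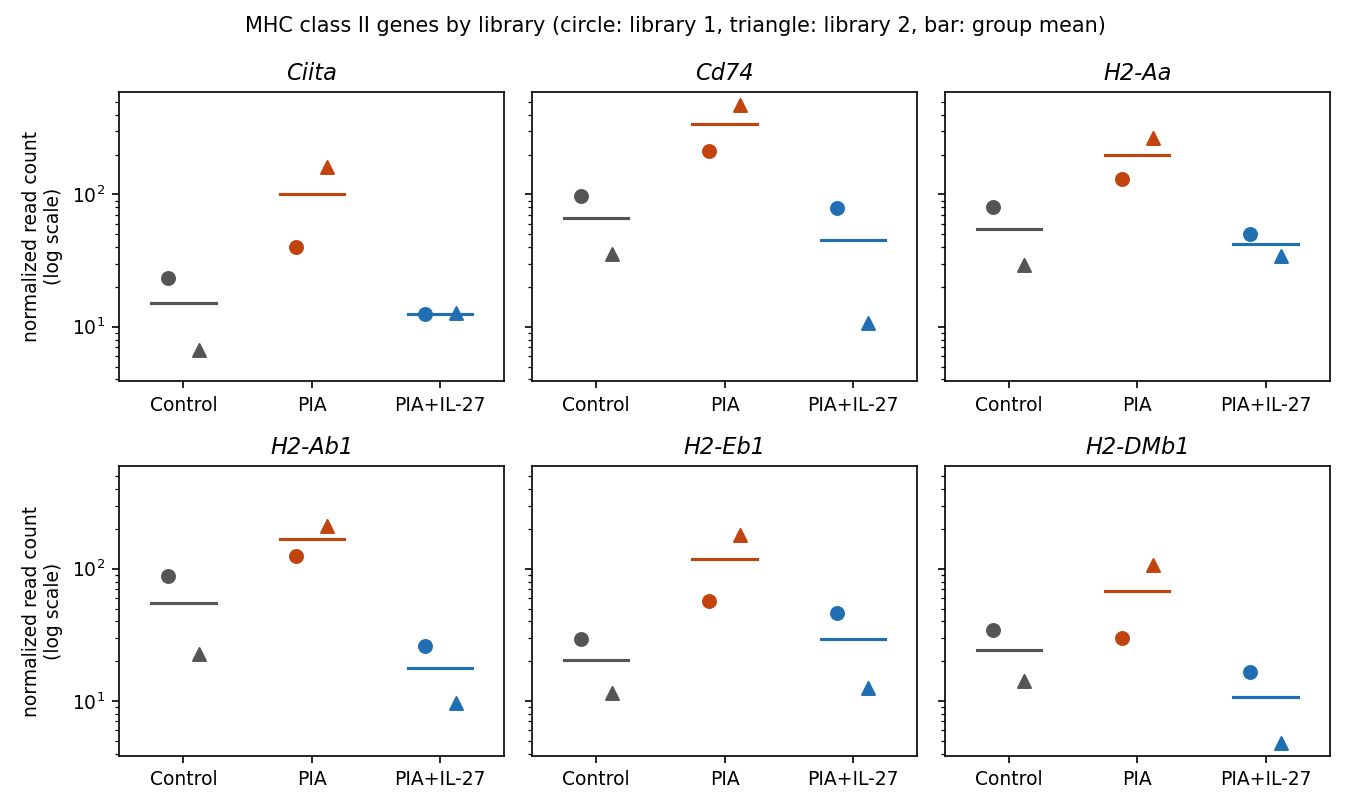
Normalized read counts (log axis) of the 6 class II genes in Control, PIA and PIA+IL-27. Circles are library 1 and triangles library 2 of a group, and bars are group means. PIA 2 is the highest point in all 6 panels, and in 5 panels both PIA points lie above both Control points.

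Part of the order of libraries was common to the members. PIA 2 was the highest library for 6 of 6 members, as it was for 11.8% of all listed genes. Control 1 exceeded Control 2 for 6 of 6 (23.3% of listed genes), by 2.40 to 3.86 times. PIA 2 exceeded PIA 1 for 6 of 6 (35.2%), by 1.67 times in H2-Ab1 up to 4.03 times in Ciita. PIA+IL-27 1 exceeded PIA+IL-27 2 for 5 of 6 (66.3%), Ciita being the exception at 12.5 and 12.6. Control 2 was the lowest library for 3 members and PIA+IL-27 2 for the other 3. Over the 6 libraries, Pearson's r of log2(normalized read count + 1) between members ran from 0.84 to 0.98 in the 15 pairs, with a median of 0.92. This describes 6 points that share their libraries, depth and tissue makeup.

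PIA against Control asks which genes differed after immune activation. All 6 class II genes had a higher mean in PIA, with log2 fold changes from 1.49 in H2-DMb1 to 2.83 in Ciita and a median of 2.11. The median of all 3216 tested genes was -0.68. The lower PIA library exceeded the higher Control library in 5 of 6 members, as in 17.2% of all listed genes, and a gene had to differ somewhere to be listed. Ciita had 2.83 ± 1.09 on the log2 scale (SE, 2 libraries a group; adjusted p = 0.504, edgeR with Benjamini-Hochberg adjustment over all tested genes). H2-Eb1 had 2.53 ± 1.04 and Cd74 2.36 ± 0.96 (adjusted p = 0.617 for both, edgeR). H2-Aa had 1.85 ± 0.97 and H2-Ab1 1.60 ± 0.97. No member passed, where 0.155% of tested genes passed as higher. At an unadjusted p under 0.05, edgeR had 3 of 6 members (Ciita, Cd74 and H2-Eb1), against 3.05% of tested genes. DESeq2 and limma also passed 0 members, with 4 of 6 higher at an unadjusted p under 0.05 in DESeq2, against 2.8% of tested genes. With 2 libraries against 2, an exact permutation test cannot go below p = 0.333.

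The size of this difference depended on single libraries. Without PIA 2 the median of the 6 genes was 1.36, and H2-DMb1 had 0.32. Without Control 1, the Control library with more class II reads, the median was 3.07, and without Control 2 it was 1.56. With a term for the libraries highest in neocortical markers, PIA 2 and PIA+IL-27 1, the median was 1.34. With GC and length trends removed, it was 1.38. In the authors' deposited table all 6 members are called higher in PIA, for example Cd74 with a log2 fold change of 2.26 (Q = 2.87e-80), as are 18% of the listed genes.

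**Figure D2:**
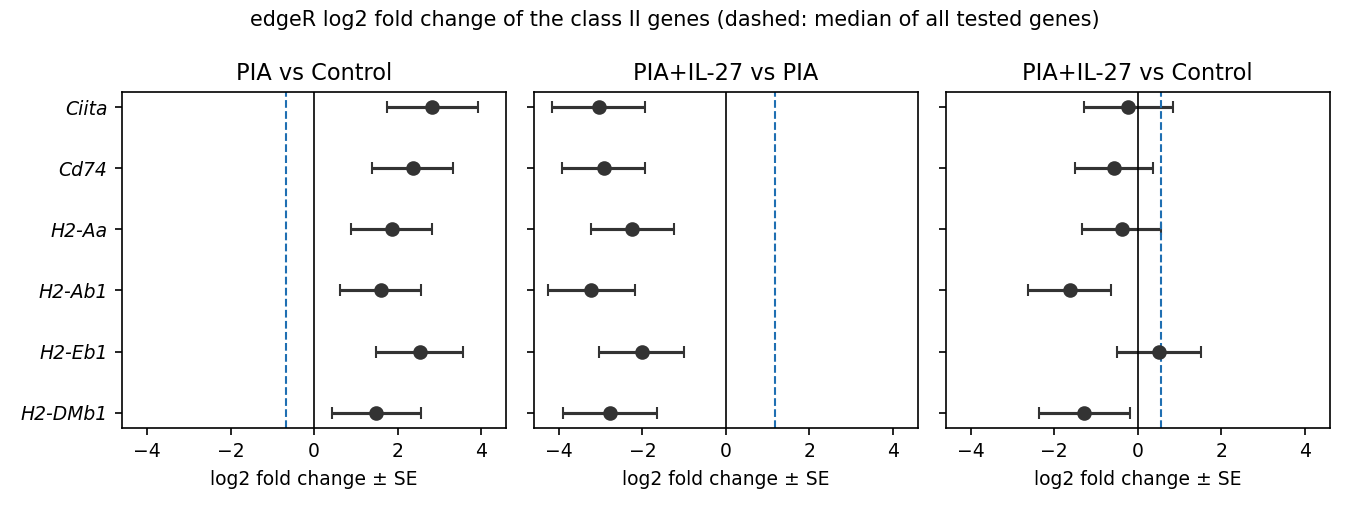
Log2 fold changes from edgeR with standard errors (horizontal axis) for the 6 class II genes in the 3 comparisons. All 6 points lie above 0 in PIA against Control and below 0 in PIA+IL-27 against PIA, and the dashed line is the median of all tested genes.

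PIA+IL-27 against PIA asks which genes differed when IL-27 was added. All 6 class II genes had a lower mean, with log2 fold changes from -2.01 in H2-Eb1 to -3.23 in H2-Ab1 and a median of -2.85. The median of all tested genes was 1.17 in this comparison. The higher PIA+IL-27 library lay below the lower PIA library in 6 of 6 members, as in 16.5% of all listed genes. H2-Ab1 had -3.23 ± 1.04 on the log2 scale (SE, 2 libraries a group; adjusted p = 0.175, edgeR). Ciita had -3.05 ± 1.10 (adjusted p = 0.233), Cd74 -2.93 ± 0.99 (adjusted p = 0.203) and H2-DMb1 -2.77 ± 1.12 (adjusted p = 0.257, edgeR). H2-Aa had -2.24 ± 0.99 and H2-Eb1 -2.01 ± 1.02. No member passed over all genes, where 0.373% of tested genes passed as lower. At an unadjusted p under 0.05, edgeR had 6 of 6 members, against 4.35% of tested genes. DESeq2 and limma passed 0 members, with 6 of 6 lower at an unadjusted p under 0.05 in DESeq2, against 4.73% of tested genes. DESeq2 gave no adjusted p for Ciita, H2-Eb1 and H2-DMb1, so these could not pass there. For Cd74, H2-Aa and H2-Ab1 its adjusted p was 0.0983. In either direction DESeq2 had 929 of the 3216 tested genes at such a p.

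Fitted on the 4 libraries of these groups alone, H2-Ab1 and H2-Aa passed (adjusted p = 0.0493 and 0.0497, edgeR). In all, 449 of the 3006 genes tested there passed, in either direction. Without PIA 2 the median of the members was -1.68, and without PIA+IL-27 2 or PIA+IL-27 1 it was -2.10 or -3.64. The GC content of the 6 transcripts was 51.0 to 57.3%, above the median of 44.9% over the listed genes. With trends on GC content and length removed from each library the median was -0.88, with 0 of 6 members at an unadjusted p under 0.05 and 6 of 6 below 0. The authors' deposited table calls all 6 members lower, for example H2-Ab1 with a log2 fold change of -3.17 (Q = 6.80e-57), as it does 18.2% of the listed genes. This comparison shares the PIA libraries with the preceding one. The order of groups with both separations (PIA above Control, PIA+IL-27 below PIA, no overlap) was met by 5 of 6 members and by 10.9% of listed genes.

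PIA+IL-27 against Control gave values below 0 for 5 of 6 members. In 5 of 6 members the group means ran in the order PIA, Control, PIA+IL-27, and in all 6 the values of PIA+IL-27 and Control overlapped, while 30.5% of listed genes did not overlap. The log2 fold changes ran from -1.63 ± 0.997 in H2-Ab1 and -1.28 ± 1.09 in H2-DMb1 to 0.52 ± 1.01 in H2-Eb1, with a median of -0.48 (0.55 over all tested genes). No member passed in edgeR, DESeq2 or limma, and 0 of 6 had an unadjusted p under 0.05 in edgeR. Of all tested genes 0.311% passed in edgeR and 2.86% had such an unadjusted p. For H2-Ab1 the adjusted p was 0.835 (edgeR). The sign of H2-Eb1 turned to -0.58 with TMM scaling, and the median of the members turned to 0.43 without Control 1 and to 0.54 with GC and length trends removed. The authors' deposited table calls H2-Ab1 (-1.66, Q = 5.51e-10) and H2-DMb1 (-1.30, Q = 0.00102) lower, 2 of 6 members against 8.57% of listed genes.

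**Figure D3:**
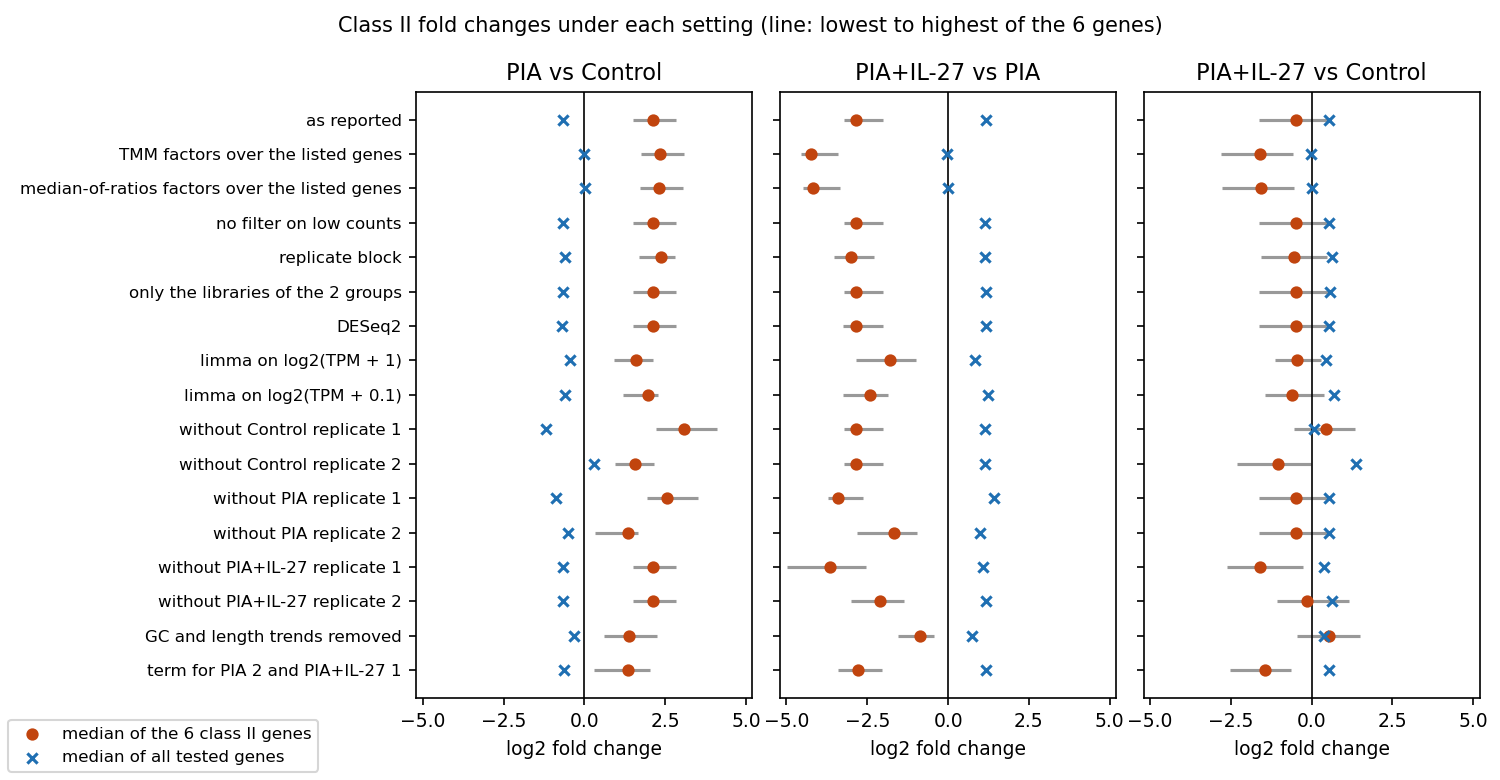
Median log2 fold change of the 6 class II genes (circles), their lowest and highest value (lines) and the median of all tested genes (crosses) under each setting of the analysis, by comparison. The circles stay above 0 for PIA against Control and below 0 for PIA+IL-27 against PIA, and lie on both sides of 0 for PIA+IL-27 against Control.

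The proportions of the class II transcripts to each other were compared within libraries on the TPM scale. For the alpha and beta chains of I-A, the ratio of H2-Aa to H2-Ab1 was 0.99 and 1.40 in Control and 1.12 and 1.37 in PIA. In PIA+IL-27 it was 2.08 and 3.77, above the other 4 libraries. The PIA+IL-27 values rest on 48 and 25 reads in library 1 and on 35 and 10 reads in library 2. H2-Ab1 over H2-Eb1 ran from 1.81 to 4.68 in Control and PIA and was 0.89 and 1.20 in PIA+IL-27. H2-Ab1 thus had the smallest share relative to both other chains in the PIA+IL-27 libraries. These ratios were chosen after their values were seen and have no test.

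Cd74 followed H2-Aa closely in 5 libraries, at 1.05 and 1.02 times its TPM in Control, 1.41 and 1.53 times in PIA and 1.35 times in PIA+IL-27 1. In PIA+IL-27 2 the ratio was 0.27, and H2-Aa replaced Cd74 as the most abundant member there with 4.6 against 1.24 TPM. The exact Poisson intervals of the reads behind it do not overlap (24.4 to 48.7 for H2-Aa, 5.49 to 19.7 for Cd74). This compares transcripts of 1 library and not the conditions.

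**Figure D4:**
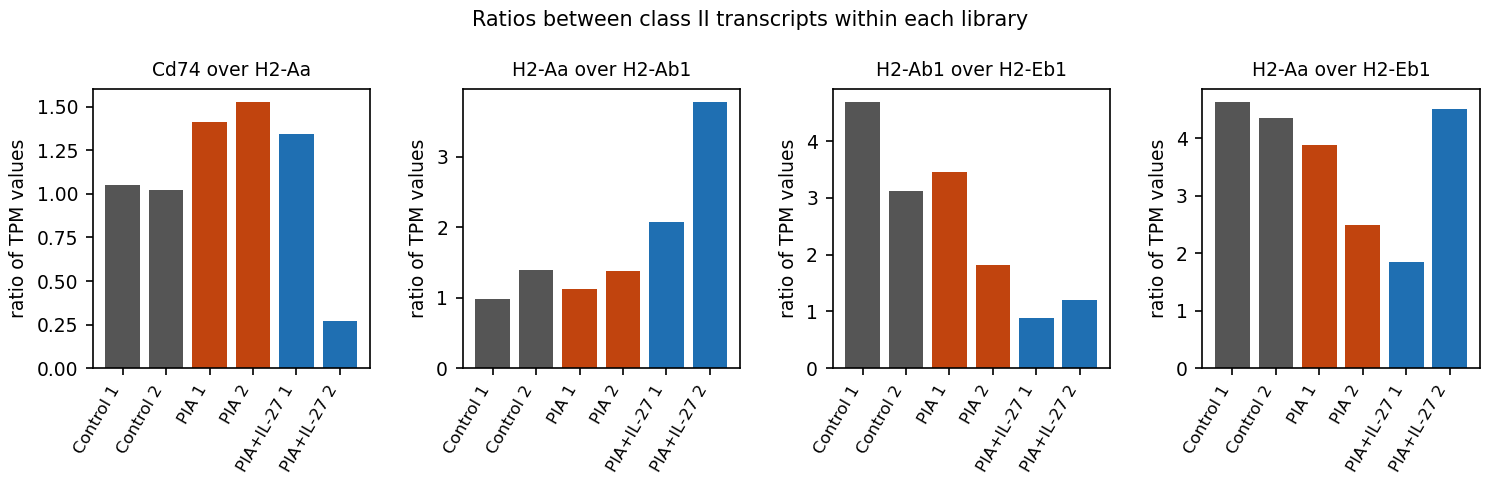
Ratios of TPM values between pairs of class II transcripts (vertical axes from 0) in each of the 6 libraries, coloured by group. H2-Aa over H2-Ab1 is 2.08 and 3.77 in PIA+IL-27 and at most 1.40 elsewhere, and Cd74 over H2-Aa drops to 0.27 in PIA+IL-27 2.

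Genes acting before Ciita were counted from a list of the interferon gamma pathway, of which 4 of 11 are in the table. None passed in edgeR in any comparison. Irf1, a transcription factor that activates the Ciita promoter, had 198 and 84.7 normalized read counts in the Control libraries, 307 and 847 in those of PIA, and 149 and 113 in those of PIA+IL-27. Its log2 fold change was 2.03 ± 0.90 in PIA against Control and -2.14 ± 0.91 in PIA+IL-27 against PIA (adjusted p = 0.617 and 0.257, edgeR). Irf8, a transcription factor of myeloid cells, had 163 and 67.6 in the Control libraries, 187 and 429 in those of PIA, and 146 and 83.5 in those of PIA+IL-27. Jak2, a kinase of the interferon gamma receptor, had 176 and 644 in the Control libraries, 330 and 241 in those of PIA, and 943 and 674 in those of PIA+IL-27.

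Of the factors that assemble on the X and Y boxes, 1 of 11 listed is in the table. Creb1, which binds the X2 part, had 135 and 427 normalized read counts in the Control libraries, 187 and 110 in those of PIA, and 512 and 392 in those of PIA+IL-27. Its log2 fold change in PIA+IL-27 against PIA was 1.60 ± 0.89 (adjusted p = 0.272, edgeR). This is opposite in sign to the members, as was the median of all tested genes at 1.17. Of the genes for lysosomal processing and class II turnover, 3 of 16 are in the table and none passed in edgeR. Ctsh, a lysosomal protease, had 364 and 65.7 in the Control libraries, 406 and 516 in those of PIA, and 60.5 and 244 in those of PIA+IL-27. Ctsc, another one, had 675 and 383, 1016 and 472, and 414 and 303 in the same order. Marchf1, the ubiquitin ligase that removes class II from the surface, had 378 and 794 in the Control libraries, 493 and 328 in those of PIA, and 1115 and 850 in those of PIA+IL-27. Both Creb1 and Marchf1 had their highest value in PIA+IL-27 1. Of 12 genes for co-stimulation and T cell partners, 0 are in the table.

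Among genes of MHC class I presentation, 9 of 14 are in the table. They had a median log2 fold change of 1.48 in PIA against Control and -1.70 in PIA+IL-27 against PIA, with 9 of 9 on the same side as the class II genes and none passing in edgeR. Nlrc5, the relative of Ciita that activates class I genes, had 38.2 and 12.4 normalized read counts in the Control libraries, 90.3 and 440 in those of PIA, and 32.3 and 42.7 in those of PIA+IL-27. H2-D1, a class I heavy chain, had 2606 and 517 normalized read counts in the Control libraries, 4088 and 4327 in those of PIA, and 1194 and 1535 in those of PIA+IL-27. B2m, the light chain of class I, had 592 and 415 normalized read counts in the Control libraries, 1366 and 1071 in those of PIA, and 976 and 636 in those of PIA+IL-27. Its values were separated in the same directions by a smaller margin. Nlrc5 and the genes of the next sentences were named after their values were seen.

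Several of these genes lie inside the class II region of chromosome 17. In the order of RefSeq, H2-DMb2 and H2-DMb1 are followed by Psmb9, Tap1, Psmb8 and Tap2, then H2-Ob, the noncoding Gm20506, H2-Ab1, H2-Aa and H2-Eb1. All of these but H2-Ob and Gm20506 are in the table. Psmb8, a subunit of the immunoproteasome, had 216 and 37.1 normalized read counts in the Control libraries, 444 and 425 in those of PIA, and 95.9 and 89.3 in those of PIA+IL-27. Tap1, part of the peptide transporter of class I, had 269 and 125 in the Control libraries, 448 and 1033 in those of PIA, and 147 and 270 in those of PIA+IL-27. Ciita lies on chromosome 16 and Cd74 on chromosome 18.

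The genes with the most similar pattern over the 6 libraries were ranked by Pearson's r with the mean profile of the members, among 2649 genes with a mean of at least 20 normalized read counts. The 10 highest were Lyl1 (r = 0.996), Col5a1 (0.991), Fes (0.988), Itga5 (0.987), Hk3 (0.985), Themis2 (0.981), Gsdmd (0.980), Psd4 (0.980), Scarf2 (0.976) and Il21r (0.976). Lyl1, a transcription factor of blood cells, had 64.6 and 40.9 normalized read counts in the Control libraries, 71.1 and 120 in those of PIA, and 53.2 and 34.0 in those of PIA+IL-27. Hk3, a hexokinase of myeloid cells, had 98.9 and 38.1, 123 and 301, and 42.8 and 27.2 in the same order. Col5a1, a fibrillar collagen, had 688 and 410, 729 and 1247, and 470 and 326. For Ciita alone the nearest were Irf1 (r = 0.994), Psmb9 (0.993) and Dok3 (0.985), and for Cd74 they were Col6a2 (0.996), Myo1f (0.994) and Psd4 (0.988). For H2-Eb1 they were Gm10499 (0.999), Lpxn (0.984) and H2-Q1 (0.983). H2-Aa was nearest to Gsdmd (0.993), H2-Ab1 to Dok2 (0.992) and H2-DMb1 to Col5a1 (0.980). Such values are high by construction when the best of many genes is taken over 6 points.

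Markers of cells that can carry class II were summed beside the members. Together the 6 class II transcripts had 354 and 120 normalized read counts in the Control libraries, 595 and 1400 in those of PIA, and 230 and 84.5 in those of PIA+IL-27. In bulk tissue, fewer cells of a type and less RNA per cell cannot be told apart. Microglia markers, 5 of 12 in the table, summed to 835 and 590 in the Control libraries, 1193 and 662 in those of PIA, and 953 and 535 in those of PIA+IL-27, with no marker at 0. Itgam makes up most of this sum in Control 1 and both PIA libraries, and the other markers had another pattern. Of the 5 microglia markers, 4 were above 0 in PIA+IL-27 against PIA (median log2 fold change 1.49), 3 with separated groups, and none passed in edgeR. Among all tested genes 2406 of 3216 were above 0 in this comparison, with a median of 1.17. P2ry12, a receptor of resting microglia, had 14.7 and 232 in the Control libraries, 9.61 and 56.7 in those of PIA, and 258 and 184 in those of PIA+IL-27. Trem2, a lipid receptor of microglia, had 60.7 and 139, 26.9 and 139, and 190 and 117 in the same order. Gpr34 had 10.8 and 71.4, 10.6 and 28.4, and 95.9 and 68.0. Siglech had 7.84 and 57.1, 9.61 and 29.5, and 59.4 and 50.5. P2ry12, Gpr34 and Siglech were thus higher in both PIA+IL-27 libraries than in either PIA library, as were 2130 of 3733 listed genes. Their sign was opposite to that of the class II genes and the same as that of most tested genes. Itgam, an integrin of microglia and other myeloid cells, had 740 and 90.5, 1137 and 409, and 350 and 116, and its PIA+IL-27 libraries lay below those of PIA. Markers of border macrophages, 3 of 8 in the table, summed to 109 and 340 in the Control libraries, 113 and 164 in those of PIA, and 370 and 171 in those of PIA+IL-27.

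Dendritic cell markers, 2 of 9 in the table (Flt3, and Siglech, which is also on the microglia list), summed to 28.4 and 79.0 in the Control libraries, 17.3 and 41.5 in those of PIA, and 70.9 and 83.5 in those of PIA+IL-27. Neutrophil markers, 7 of 8 in the table, summed to 401 and 17.1 in the Control libraries, 1368 and 62.2 in those of PIA, and 105 and 45.6 in those of PIA+IL-27. Their highest library was PIA 1, while that of the class II genes was PIA 2. S100a8, a calcium-binding protein of neutrophils, fell by 3.92 on the log2 scale in PIA+IL-27 against PIA (SE 1.05, adjusted p = 0.0430, edgeR), with overlapping groups. Of the neutrophil markers, Elane was at 0 in 4 libraries and Ly6g in 3. Monocyte markers, 4 of 5 in the table, summed to 352 and 807 in the Control libraries, 559 and 416 in those of PIA, and 1326 and 940 in those of PIA+IL-27. Vcan, a matrix proteoglycan, makes up 1302 of the 1326, and the other markers ran the other way. Plac8 had 65.6 and 14.3 in the Control libraries, 177 and 48.0 in those of PIA, and 16.7 and 25.2 in those of PIA+IL-27. Ly6c2, a surface protein of inflammatory monocytes, had 12.7 and 0.952, 36.5 and 8.73, and 3.13 and 6.80 in the same order. Of the 3 tested monocyte markers, 2 were below 0 in PIA+IL-27 against PIA, both with separated groups, as were 16.5% of listed genes. The median log2 fold change of the 3 was -2.42, and none passed in edgeR.

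Of B cell markers 0 of 7 are in the table, and of T cell markers 1 of 8, Cd8a, which had at most 6.67 normalized read counts and was at 0 in Control 1 and PIA 1. The markers of choroid plexus, 10 of 10 in the table, summed to between 198 and 61867 and were highest in Control 2, the Control library with the fewest class II reads. PIA 1 held 12018.5 and PIA 2 held 441. Ttr passed as lower in PIA+IL-27 against PIA (log2 fold change -4.13, adjusted p = 0.000629, edgeR), with overlapping groups. In PIA+IL-27 against Control 3 of these markers (Ttr, Clic6 and Tmem72) passed as lower in edgeR, where 4 of 3216 tested genes did. For Ttr the groups overlapped, with 78.4 and 58611 normalized read counts in the Control libraries and 6.26 and 649 in those of PIA+IL-27. In Control 1 and Control 2, Clic6 had 30.4 and 764 and Tmem72 had 0.979 and 119. All 3 were thus far higher in Control 2 than in Control 1. Markers of meningeal fibroblasts, 4 of 7 in the table, summed to 10556 and 7320 in the Control libraries, 11078 and 7533 in those of PIA, and 4986 and 2969 in those of PIA+IL-27. All 4 were lower with separated groups in PIA+IL-27 against PIA (median log2 fold change -1.27), as were the class II genes and 16.5% of listed genes. None of the 4 passed in edgeR. In PIA against Control their median was 0.07. Ependymal markers, 5 of 6 in the table, had 5 of 5 lower with separated groups in PIA against Control (median log2 fold change -2.26). Of all listed genes 617 of 3733 were separated in this direction. None of the ependymal markers passed in edgeR. The part of any of these cells in the class II values was not tested.

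**Figure D5:**
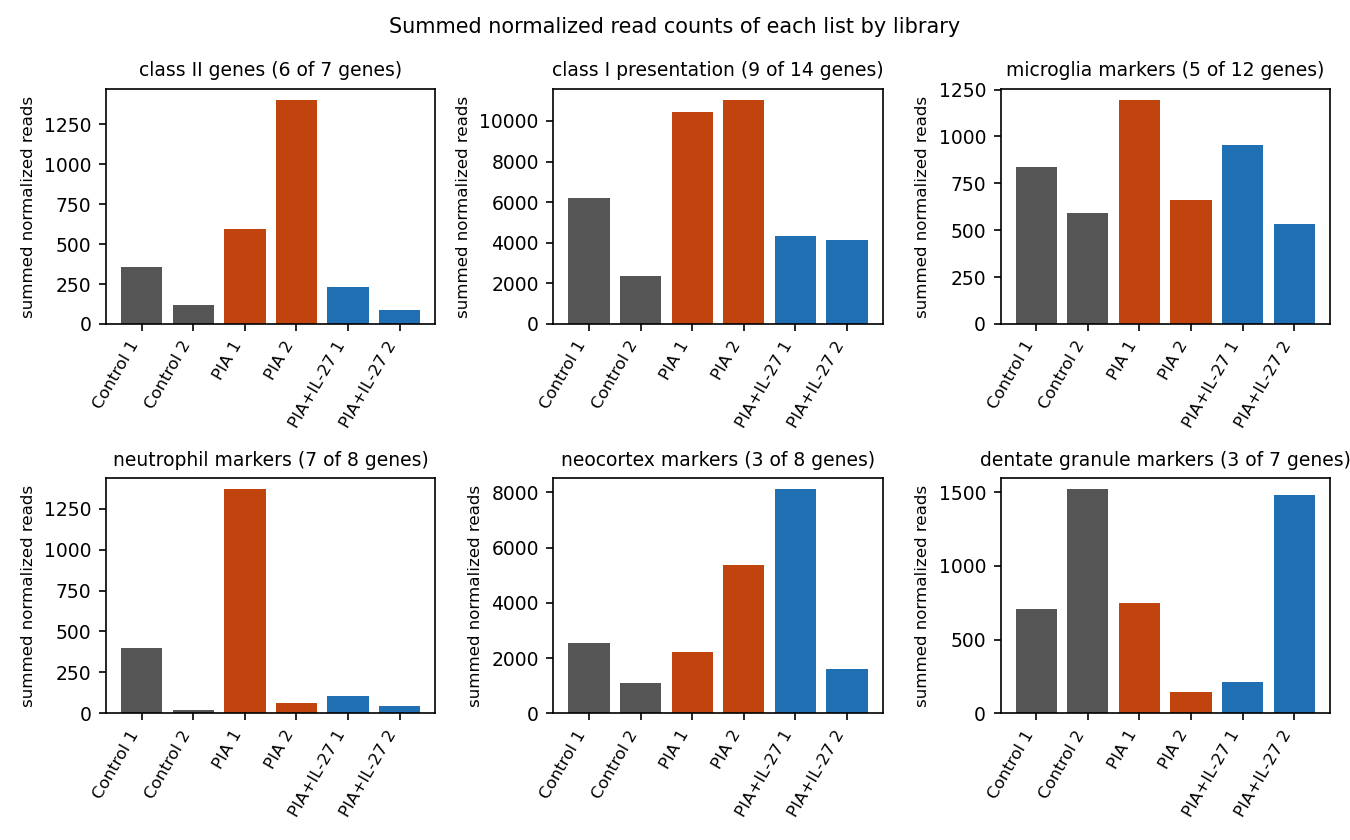
Summed normalized read counts (vertical axes from 0) by library for the class II genes and for lists of class I presentation, microglia, neutrophil, neocortex and dentate granule markers, with the number of listed genes in the table. The class II sum is highest in PIA 2 (1400), the neutrophil sum in PIA 1 (1368) and the neocortex sum in PIA+IL-27 1 (8107).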

How the data were processed

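Per the file headers, the deposited table holds for each gene an estimated count of reads in each library (11.3 to 13.3% of these expected counts are not whole). The authors' normalized read count is that count rounded up and divided by 1 factor of the library, a signal that matched this rule for 100% of values within 1e-06. The TPM, the log2 fold changes and the Q values (adjusted p-values) are also the authors', per the file headers. Aligner, counter, build, strandedness and the authors' test: not given in the sources used here. Columns were joined to samples by the library names in the labels. Counting errors of single values are exact Poisson 95% intervals.

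All 6 libraries entered 1 quasi-likelihood fit of the rounded counts (edgeR 4.0.16, R 4.3.3), with the authors' factors as library sizes. The function filterByExpr (minimum count 10) left 3216 genes, among them all 6 members. The threshold was an adjusted p of 0.05. The biological coefficient of variation was 0.597, with infinite prior degrees of freedom, so all genes shared 1 trend of spread. The fit was tested on simulated data. Because the table is a selection, p-values adjusted over it do not hold for the genome. Alternatives were TMM and median-of-ratios scaling, no filter, a replicate block, the 2 groups alone, DESeq2 1.42.0, limma 3.58.1 on log2 TPM with 1 or 0.1 added, and leaving out each library. A pair of alternatives was chosen after seeing the data: trends on GC content and length removed (loess, span 0.5, GENCODE transcripts, 3117 genes), and a term for PIA 2 and PIA+IL-27 1.

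Members and lists were chosen with earlier results of these data known. The text names every member, up to 4 genes of a list by mean read count, the 10 genes with the most similar pattern to the members' mean and up to 3 per member, and says where others were named after their values were seen.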

Additional observations from a re-analysis of the deposited data

How the results depend on the processing

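In PIA against Control all 6 class II genes were above 0, and in PIA+IL-27 against PIA all 6 were below 0, under each alternative run. In PIA+IL-27 against PIA their median moved from -2.85 to -4.23 with TMM scaling, -4.17 with median-of-ratios scaling, -1.81 with limma on log2(TPM + 1) and -0.88 with GC and length trends removed. With the 2 groups alone H2-Aa (-2.24) and H2-Ab1 (-3.23) passed, among 449 of the 3006 genes tested there that passed in either direction. No other alternative passed a member. In PIA+IL-27 against Control the median moved from -0.48 to -1.60 with TMM and -1.57 with median-of-ratios scaling. TMM scaling also moved the median of all tested genes in PIA+IL-27 against PIA, from 1.17 to -0.029, so the class II median less that of all genes went from -4.02 to -4.20. In PIA+IL-27 against Control signs turned for H2-Eb1 with TMM (-0.58), median-of-ratios scaling (-0.54), without Control 2 (-0.00971), without PIA+IL-27 1 (-0.69) and with the added term for neocortex-high libraries, which are PIA 2 and PIA+IL-27 1 (-0.63). They turned for Ciita, Cd74 and H2-Aa without Control 1 (1.06, 0.35 and 0.51) and with GC and length trends removed (0.67, 0.48 and 0.60), and for Cd74 without PIA+IL-27 2 (0.25). The cause was not tested. Leaving out 1 library gave medians of 1.36 to 3.07, -3.64 to -1.68 and -1.59 to 0.43 in the 3 comparisons. In PIA+IL-27 against Control it gave -0.89 to 1.06 for Ciita, -2.63 to 0.35 for Cd74, -0.93 to 0.51 for H2-Aa and -0.69 to 1.34 for H2-Eb1.

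All genes past the threshold numbered 7, 14 and 10 in PIA against Control, PIA+IL-27 against PIA and PIA+IL-27 against Control. They numbered 0, 0 and 0 with TMM and with median-of-ratios scaling, 2, 4 and 1 with DESeq2, and 0 to 7 in each comparison when 1 library was left out, with 0 in all 3 without Control 1 or Control 2. Limma on log2(TPM + 0.1) gave 12 genes in PIA against Control. In PIA+IL-27 against PIA the 2 groups alone gave 449 genes, and the added term 2. In PIA+IL-27 against Control the 2 groups alone gave 1, limma on log2(TPM + 1) gave 2, limma on log2(TPM + 0.1) gave 5, and the added term 3. With GC and length trends removed PIA against Control had 13 and PIA+IL-27 against PIA had 22. The replicate block gave 3, 4 and 3 genes. Deviations of same-numbered libraries correlated at 0.145 (Control and PIA), 0.061 (Control and PIA+IL-27) and -0.261 (PIA and PIA+IL-27), and the labels tie the numbers to no animal or batch, so the numbers were not taken as pairs. Crossing PIA 1 with PIA+IL-27 2 is the added term. A library left out leaves its group with 1, which is assumed to vary like the others. Depth limits the lowest values most, such as the 4.40 estimated reads of H2-DMb1 in PIA+IL-27 2.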

Other observations

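Of 8 listed genes for IL-27, its receptor and its signal, 3 are in the table, and those tested did not pass in edgeR. Il27, the alpha subunit of the cytokine, had 0.979 and 0.952 normalized read counts in the Control libraries, 2.88 and 7.64 in those of PIA, and 1.04 and 0 in those of PIA+IL-27, each a few reads, and was left out of the test by the filter. Ebi3, its other subunit, had 69.5 and 31.4 in the Control libraries, 136 and 100.4 in those of PIA, and 83.4 and 46.6 in those of PIA+IL-27. Socs3, a feedback inhibitor of cytokine receptors, had 180 and 79.0 in the Control libraries, 368 and 143 in those of PIA, and 54.2 and 63.1 in those of PIA+IL-27. For Ebi3 both PIA libraries lay above the others, as they did for 5 of 6 class II genes, whereas the highest library was PIA 1 and not PIA 2.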
